A study of Mus musculus with 30 samples.

Results

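3T3-L1 is a mouse fibroblast line whose cells stop dividing, pass through a last round of division and turn into fat cells when a hormone mixture is added. Quizalofop-p-ethyl (QpE) is a grass herbicide that inhibits acetyl-CoA carboxylase in the plastids of its target plants. The comparison described here sets 5 cultures labelled as given 50 µM QpE for 24 h against the 5 cultures labelled as the control at 24 h. The 10 RNA-seq libraries are all those with these 2 labels, out of 30 libraries that also cover 6 h and 12 days, with 5 control and 5 QpE cultures at each time. The labels of the last time give 12 days, while their protocol text describes a shorter incubation with QpE, so the exposure behind the 12 day values is uncertain. Per the labels, cells of 1 line were seeded at 20000 per well, moved into a differentiation medium with serum, 500 µM of the phosphodiesterase inhibitor IBMX and 100 nM insulin, and received QpE when that medium was refreshed. Both groups shared this medium, so the controls were differentiating too. The labels mention dexamethasone, a synthetic glucocorticoid, as a positive control of the study, and no library in either group carries that label. The labels do not name a vehicle for the controls. The libraries are 5 numbered cultures of 1 cell line per group, and the labels do not say whether they were set up on separate days, so p-values measure the spread between these cultures.

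Fat cell formation in these cells runs through C/EBP-beta and C/EBP-delta to PPAR-gamma and C/EBP-alpha, which switch on genes for lipid uptake, triglyceride assembly and lipid droplet coats. Matrix genes, contractile genes and preadipocyte regulators are turned down along the way, and mitochondria are enlarged. Glucocorticoids are a usual part of the inducing mixture and act through the glucocorticoid receptor.

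Levels were read as FPKM (fragments per kilobase of transcript, scaled to the mapped fragments of the library), transcripts being summed per gene, and differences as QpE minus control on log2(FPKM + 1), a scale that understates the change of genes of low level. Gene levels are means ± SD over 5 cultures and log2 differences are estimates ± SE from limma, unless stated otherwise. Single values are given in the order of replicates 1 to 5. Where a pair of means stands without group names, the control comes first. In all, 13057 genes reached 1 FPKM in at least 5 of the 10 libraries and were tested. The FPKM total per library was 431116 to 453699 in controls and 440837 to 463043 with QpE, and the files hold no read counts; the steps between low values put the depth at 10970000 to 13330000 fragment pairs per library, an estimate under which 46.0% to 55.0% of those values were whole multiples of the step (to within 0.004, the steps being 0.50 to 0.61 in FPKM times transcript bases). Of 5 library measures, the FPKM total differed most between groups (438970 ± 9222 against 455822 ± 8722, exact permutation test over the 10 libraries, two-sided p = 0.0159, adjusted over the 5 measures p = 0.0794). In QpE replicates 1 and 5 the ribosomal RNA gene AY036118 reached 5915 and 9398 FPKM, against 930.4 to 2229 FPKM in the other 8 libraries; the part of this in the results was not tested. Across genes, QpE replicates 2 and 5 correlated more closely with the 5 controls (mean r of 0.9615 and 0.9612) than with the other QpE libraries (0.9607 and 0.9552), and replicate 1 equally with both (0.9602). QpE replicate 4 had the lowest mean correlation with its own group (0.949). It stood at 45.3 on the first principal component, the other libraries being at -15.4 to 11.2. List medians are therefore also given without QpE replicates 1 and 5, or without another library where that moved them by over 1.5 times.

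The cultures carried the markers of their label. Of 12 preadipocyte and fibroblast markers 11 were tested, with summed levels of 1.024e+04 to 1.115e+04 FPKM in controls and 8410 to 1.138e+04 FPKM with QpE, and all 10 fat cell markers were tested, with sums of 364 to 883 FPKM in controls and 626 to 1030 FPKM with QpE. Of 9 endothelial and 9 epithelial markers none was tested, and their sums stayed at or below 0.418 FPKM in every library. Of 12 macrophage and leukocyte markers 1 was tested, with sums of 4.54 to 6.11 and 4.48 to 5.58 FPKM, and the defining genes Ptprc and Adgre1 were listed at 0 in all libraries but QpE replicate 4. Muscle, bone and neural lists each had 1 tested member. In such bulk samples, fewer cells of a type and less RNA per cell cannot be told apart.

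No single gene passed the threshold at 24 h: limma called 0 of 13057 genes (0.0%) at an adjusted p of 0.05. At an unadjusted p of 0.05, 590 genes (4.52%) lay higher and 596 (4.56%) lower, 9.08% together, and the smallest adjusted p was 0.129. The groups did not overlap for 112 genes with QpE higher (0.858% of those tested) and for 151 with QpE lower (1.16%), 2.01% together. Over all genes the median log2 difference was 0.01, 53.8% of values were above 0, 46.2% below, and the median SE was 0.11. Rescaling each library to 1 common total, since QpE libraries had the higher FPKM totals, moved that median to -0.04 and the share above 0 to 39.03%. Only the levels of the genes described from here on are therefore given as higher or lower; none is called changed at 24 h. The plot of difference against unadjusted p shows the spread of these values.

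**Figure D1:**
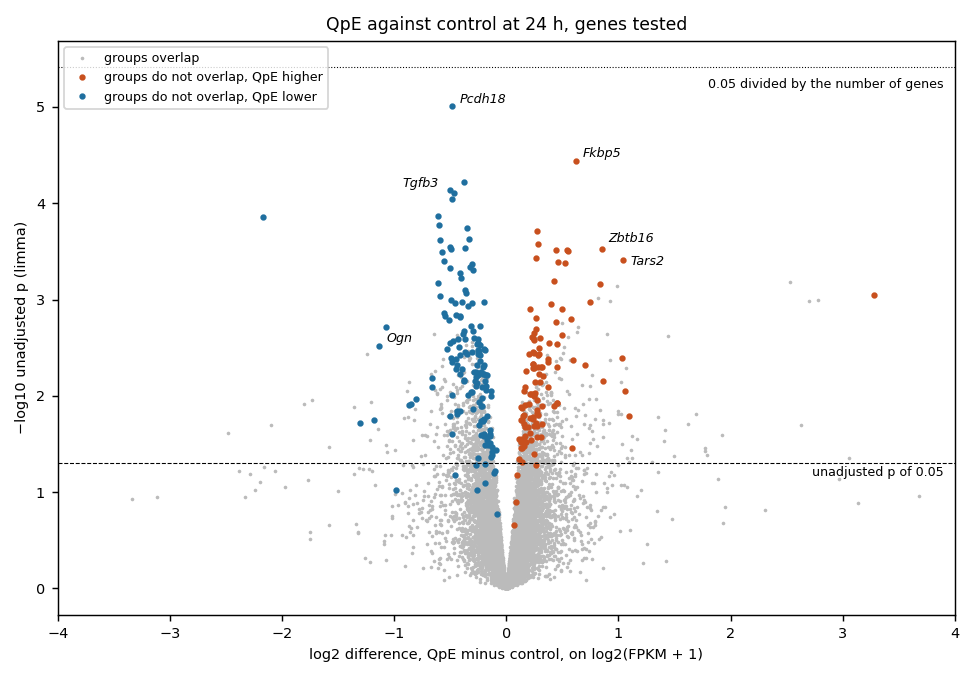
Log2 difference, QpE minus control at 24 h (x axis, on log2(FPKM + 1)) against the −log10 of the unadjusted limma p (y axis) for 13056 of the 13057 genes tested (1 lies outside the axis). Coloured points are the 112 and 151 genes whose groups do not overlap, and the 2 horizontal lines mark the unadjusted threshold and the threshold divided by the number of genes, which no gene reaches.

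The leading gene with QpE higher was Fkbp5, a co-chaperone of steroid receptors whose transcription glucocorticoids raise. It stood at 11.55, 10.9, 13.5, 10.4 and 10.7 FPKM in controls and at 16.1, 16.9, 20.9, 19.4 and 17.04 FPKM with QpE. All 5 QpE cultures lay above all 5 controls, with replicate 3 the highest in both groups. The log2 difference was 0.62 ± 0.09 (95% interval 0.42 to 0.82, limma adjusted p = 0.188), and Fkbp5 passed the threshold when the 6 h libraries entered the same limma fit (adjusted p = 0.0429). That was 1 of 27 alternative settings, and Fkbp5 passed in none of the others. Nearly all of its FPKM belonged to 2 transcripts that share their 3′ end on chromosome 17 of GRCm38 and begin at different first exons. The longer one (ENSMUST00000114792, 14 exons, minus strand, chr17:28399097-28517524) held 9.61 to 12.4 FPKM in controls, 14.5, 18.97 and 15.5 FPKM in QpE replicates 1, 4 and 5, and was listed at 0 in QpE replicates 2 and 3. The shorter one (ENSMUST00000079413, 11 exons, chr17:28399095-28486149) held 0.701 to 1.21 FPKM in controls, 1.51, 0.41 and 1.56 FPKM in QpE replicates 1, 4 and 5, and 16.9 and 20.9 FPKM in replicates 2 and 3. The gene total separated the groups, while the transcript given most of it differed inside the QpE group; the 2 overlap, so the split between them is uncertain.

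The upstream sequence of the shorter Fkbp5 transcript is shown here beside that of Pcdh18, the leading gene with QpE lower, because these 2 genes had the smallest p in each direction. Each is the 250 bases before the start in RefSeq (GRCm38.p6), read 5′ to 3′ along the gene, with each CCAAT box, on either strand (CCAAT or ATTGG), in capitals. The Fkbp5 window is chr17:28486150-28486399 and the Pcdh18 window chr3:49757317-49757566, both on the minus strand. The shorter Fkbp5 transcript held 31.24% of the gene's FPKM, and in controls 0.947 ± 0.203 FPKM against 10.47 ± 1.18 FPKM for the longer one. No window is shown for the start of the longer one.
Fkbp5: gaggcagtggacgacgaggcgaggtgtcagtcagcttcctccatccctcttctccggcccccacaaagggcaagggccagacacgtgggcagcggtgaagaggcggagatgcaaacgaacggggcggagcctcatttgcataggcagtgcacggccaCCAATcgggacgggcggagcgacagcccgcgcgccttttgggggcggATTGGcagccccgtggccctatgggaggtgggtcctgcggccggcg
Pcdh18: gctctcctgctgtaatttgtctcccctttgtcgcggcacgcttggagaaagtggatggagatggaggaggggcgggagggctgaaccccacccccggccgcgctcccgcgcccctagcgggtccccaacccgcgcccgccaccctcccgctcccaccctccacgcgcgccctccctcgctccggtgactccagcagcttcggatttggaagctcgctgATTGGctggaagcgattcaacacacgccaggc
The Fkbp5 window holds 2 CCAAT boxes and the Pcdh18 window 1, and 33.8% of the 32851 RefSeq windows of this length hold at least 1. The palindromic glucocorticoid response element, searched on both strands as AGAACA, any 3 bases and TGTTCT, is in neither window and in 3 of the 32851; these letters being absent says nothing of the receptor.

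Among the other 11 leading genes with QpE higher, Abhd5, the co-activator of the triglyceride lipase ATGL, stood at 72.2, 68.3, 56.2, 50.05 and 65.7 FPKM in controls and 81.5, 92.1, 101, 93.03 and 86.9 FPKM with QpE. The lowest QpE culture was replicate 1, and it still lay above the highest control, also replicate 1. The difference was 0.54 ± 0.10 (interval 0.32 to 0.77, limma adjusted p = 0.188), or 0.38 on named transcripts alone. The main transcript (ENSMUST00000156520) held 32.45 to 57.75 FPKM in controls and 69.63 to 85.55 FPKM in QpE replicates 1 to 4. In QpE replicate 5 it held 20.36 FPKM, below every control, and an assembled transcript held 56.01 FPKM. The total of replicate 5 therefore rests on the sum over transcripts. Xdh, xanthine dehydrogenase, an enzyme of purine breakdown, stood at 60.03, 58.5, 65.98, 72.02 and 56.8 FPKM in controls and 80.7, 74.6, 90.05, 93.8 and 89.9 FPKM with QpE. Its groups were close, since control replicate 4 nearly reached QpE replicate 2, and the difference was 0.45 ± 0.08 (limma adjusted p = 0.188). Aldh9a1, an aldehyde dehydrogenase of carnitine and polyamine metabolism, stood at 23.2 ± 0.9201 FPKM in controls and 28.2 ± 1.48 FPKM with QpE.

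Of the remaining leading genes with QpE higher, Tob1, an anti-proliferative adaptor of mRNA deadenylation, stood at 36.8, 36.1, 36.3, 34.2 and 35.3 FPKM in controls and 44.1, 41.5, 48.1, 41.3 and 43.85 FPKM with QpE, a difference of 0.28 ± 0.05. Gadd45g, a growth arrest and stress gene, stood at 6.55 ± 0.869 FPKM in controls and 9.36 ± 0.8202 FPKM with QpE. It too passed the threshold with the 6 h libraries in the limma fit (adjusted p = 0.0475), and in no other setting. Iqsec1, an exchange factor for ARF GTPases, stood at 14.8 ± 0.599 FPKM in controls and 18.2 ± 0.711 FPKM with QpE. Dpep1, a membrane dipeptidase (14.45 ± 2.285 and 21.4 ± 1.2 FPKM), and Tacc2, a centrosome and microtubule protein (8.86 ± 0.655 and 12.1 ± 1.66 FPKM), likewise had no overlap between groups. Tars2 (3.71 ± 1.33 and 8.44 ± 1.33 FPKM), Bcl9l (24.4 ± 2.42 and 35.7 ± 5.12 FPKM) and Cdk5rap2 (4.35 ± 0.662 and 8.815 ± 2.91 FPKM) share their assembled locus with another gene, so their totals are uncertain. On its highest transcript alone Tars2 differed by 0.50 in place of 1.04 and Cdk5rap2 by 0.09 in place of 0.84. Iqsec1 and Tacc2 rest on the sum over transcripts: read from the single highest transcript they lay below 0, at -0.61 and -0.75.

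**Figure D2:**
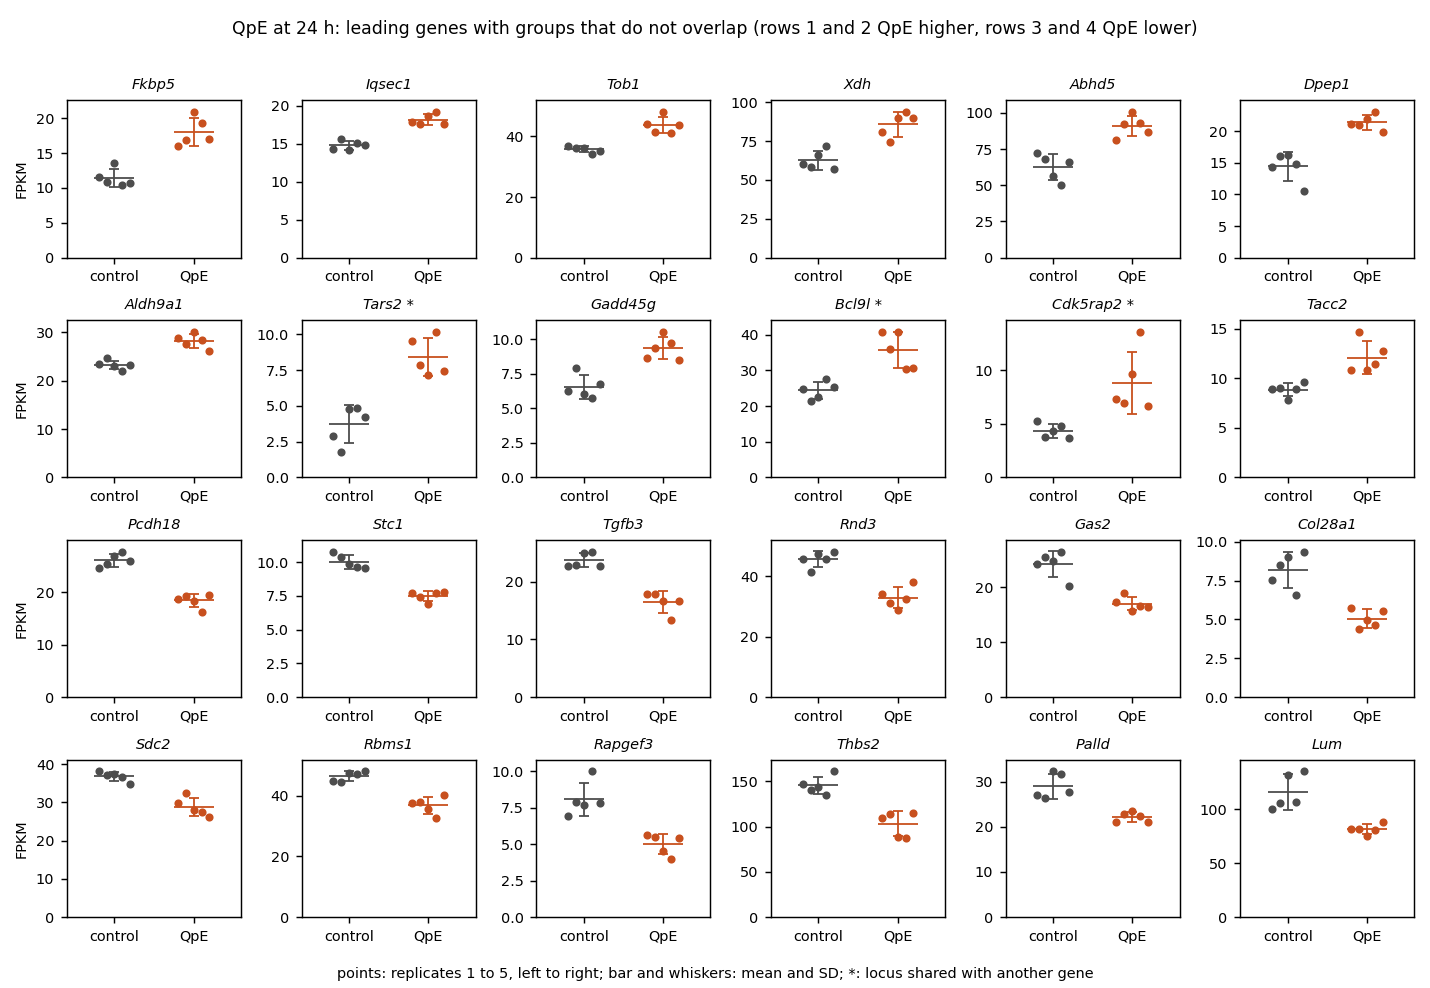
FPKM (y axis, from 0) of the 12 leading genes in each direction in the 5 control and 5 QpE cultures at 24 h; points are replicates 1 to 5 from left to right, bars are means and whiskers SD. In every panel the groups do not overlap, which was part of the rule that chose the genes, as in Pcdh18 (26.1 ± 1.23 against 18.4 ± 1.31 FPKM).

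The leading gene with QpE lower was Pcdh18, a protocadherin of cell adhesion, with the smallest p of all genes. It stood at 24.6, 25.3, 26.9, 27.7 and 25.95 FPKM in controls and at 18.7, 19.25, 18.3, 16.2 and 19.5 FPKM with QpE. The spread within each group was small, and the highest QpE culture, replicate 5, lay well under the lowest control, replicate 1. The log2 difference was -0.48 ± 0.06 (interval -0.62 to -0.35, limma adjusted p = 0.129). Its main transcript (ENSMUST00000035931, 4 exons, chr3:49743296-49757316, minus strand) held 58.01% of the gene's FPKM and an assembled one with nearly the same ends 40.01%.

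Among the other leading genes with QpE lower, Tgfb3, a TGF-beta ligand, came from 1 transcript (ENSMUST00000003687, 7 exons, chr12:86056745-86079041) and stood at 22.8, 22.9, 24.9, 25.2 and 22.7 FPKM in controls and 17.9, 17.8, 16.6, 13.3 and 16.7 FPKM with QpE. QpE replicate 4 was the lowest, and the other 4 lay close together below every control. The difference was -0.51 ± 0.08 (interval -0.68 to -0.33, limma adjusted p = 0.188). Stc1, stanniocalcin 1, a secreted glycoprotein that inhibits the IGF-binding-protein protease PAPP-A, stood at 10.8, 10.4, 9.82, 9.61 and 9.57 FPKM in controls and 7.698, 7.38, 6.905, 7.705 and 7.79 FPKM with QpE, a difference of -0.38 ± 0.06. Lum, lumican, a proteoglycan of collagen fibrils, stood at 100.1, 106, 132, 106 and 135 FPKM in controls and 81.6, 81.96, 74.9, 81.2 and 88.2 FPKM with QpE. Controls ranged widely and the QpE cultures narrowly, and the difference was -0.49 ± 0.09 (-0.28 on named transcripts alone).

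Thbs2, thrombospondin 2, an adhesive matrix protein, stood at 147, 141, 144, 135 and 161 FPKM in controls and 110, 114, 89.01, 87.15 and 115 FPKM with QpE, with QpE replicates 3 and 4 the lowest. Col28a1, a minor collagen, stood at 8.19 ± 1.15 FPKM in controls and 5.06 ± 0.594 FPKM with QpE. It passed the threshold with the 6 h libraries in the limma fit (adjusted p = 0.0429) and in no other setting. Its highest transcript alone differed by -0.12 in place of -0.60. Sdc2, a cell surface heparan sulfate proteoglycan, stood at 36.8 ± 1.24 FPKM in controls and 28.8 ± 2.42 FPKM with QpE. Among genes of the cytoskeleton, Palld, an actin cross-linker, stood at 29.04 ± 2.76 and 22.2 ± 1.13 FPKM, and Gas2, a cytoskeletal gene of growth arrest, at 24.2 ± 2.42 and 16.96 ± 1.204 FPKM, although its highest transcript alone lay above 0 (0.51). Rapgef3, the cAMP-activated exchange factor EPAC1, stood at 8.07 ± 1.13 FPKM in controls and 5.01 ± 0.711 FPKM with QpE, and Rbms1, an RNA-binding protein, at 46.5 ± 1.59 and 36.8 ± 2.91 FPKM. On the highest transcript alone Rbms1 differed by -0.08 in place of -0.33, and Palld by -0.23 in place of -0.37.

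Lists of genes by function are described next by how many tested members lay above 0 and by their median log2 difference, to be read against 53.8% and 0.01 over all genes. Counts of members whose groups were apart, that is without overlap, are to be read against 0.858% of all genes with QpE higher and 1.16% with QpE lower. No list was tested, and members named beyond the anchor genes and the smallest p in each direction were chosen after their values were seen.

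**Figure D3:**
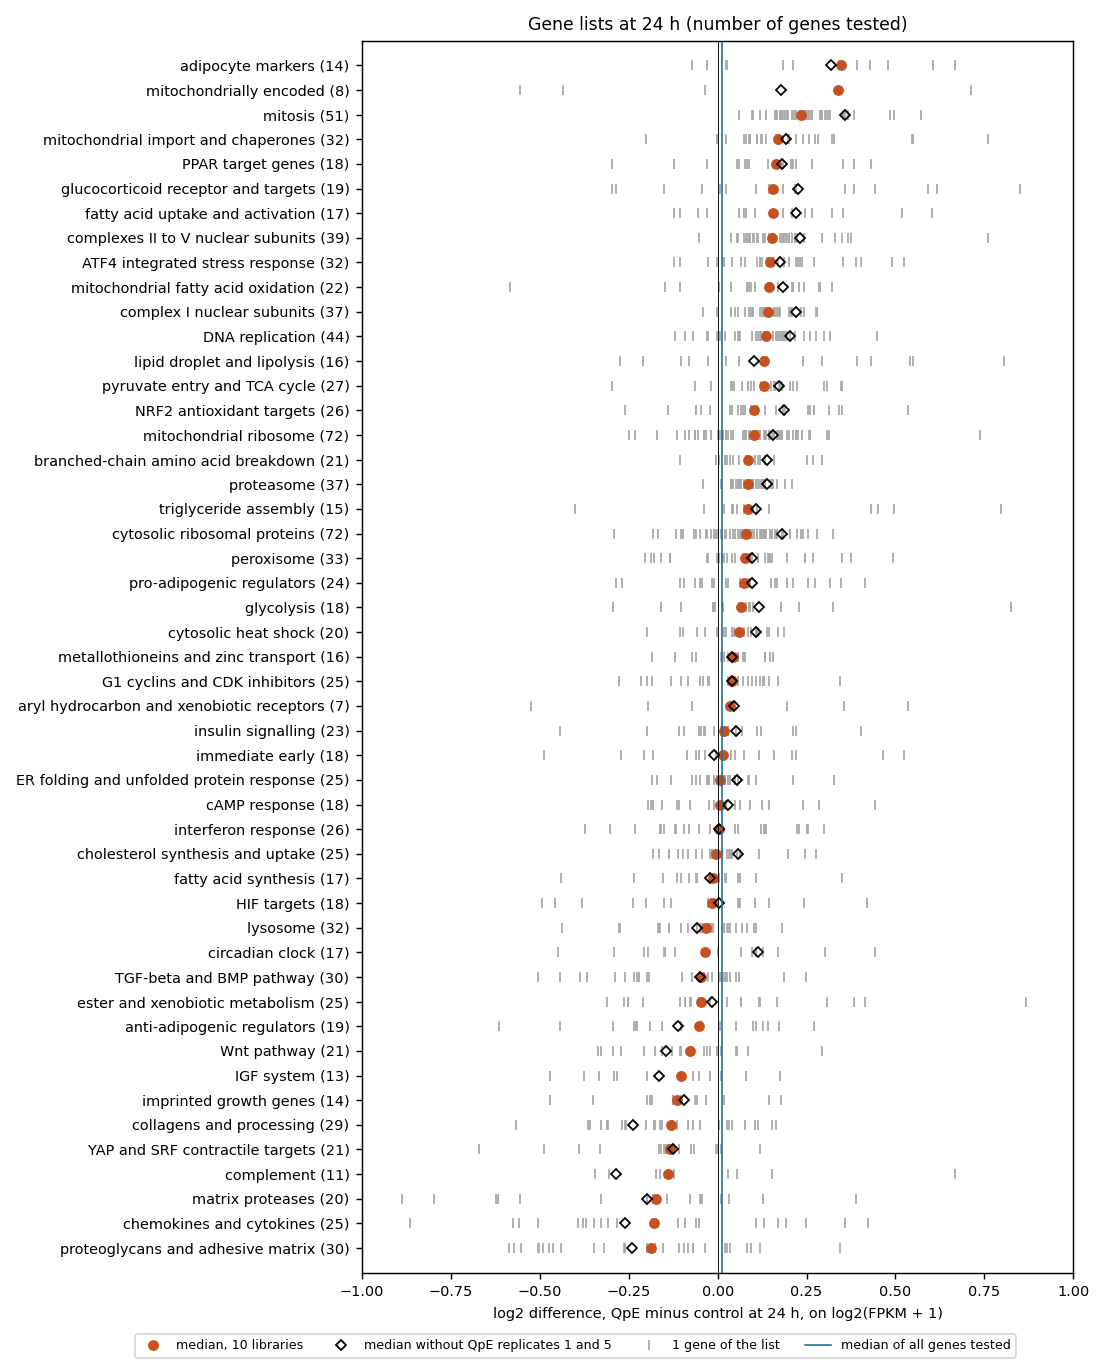
Log2 difference at 24 h (x axis) of the tested genes of 49 lists (rows, number tested in brackets): grey ticks are genes (12 lie outside the axis), filled circles the list median and open diamonds the median without QpE replicates 1 and 5. The blue line is the median of all genes, 0.01; matrix and chemokine lists lie to its left, and mitosis, mitochondrial and fat cell lists to its right.

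Of the regulators of fat cell formation, 15 of 24 pro-adipogenic factors lay above 0 (median 0.07, 0.03 without QpE replicate 3). Pparg, the nuclear receptor PPAR-gamma, stood at 34.5, 36.6, 31.05, 22.5 and 29.2 FPKM in controls and 41.2, 42.45, 49.7, 46.2 and 28.1 FPKM with QpE. QpE replicates 1 to 4 lay above every control and replicate 5 among them, and the difference was 0.41 ± 0.16 (interval 0.05 to 0.78, limma adjusted p = 0.504). Rxra, the partner of PPAR-gamma on DNA, stood at 55.97 ± 5.085 FPKM in controls and 67.9 ± 7.43 FPKM with QpE with no overlap. Cebpa stood at 57.9 ± 15.4 FPKM in controls and 73.3 ± 17.2 FPKM with QpE. Cebpb, an early inducer, stood at 99.2 ± 9.975 and 120 ± 24.5 FPKM and Cebpd at 9.54 ± 1.13 and 7.696 ± 1.49 FPKM, and these 3 overlapped. Cebpa differed by 0.35, or 0.18 without control replicate 4, and Cebpb by 0.25, or 0.06 without QpE replicates 1 and 5. Of the opposing regulators, 8 of 19 lay above 0 (median -0.05, -0.02 without control replicate 4 and -0.11 without QpE replicates 1 and 5). Zfp521, a zinc finger repressor of the fat cell fate, stood at 20.7, 20.03, 21.2, 20.75 and 21.2 FPKM in controls and 17.2, 18.7, 15.8, 16.7 and 19.6 FPKM with QpE, without overlap. Gata2 (4.03 ± 1.084 and 2.31 ± 0.888 FPKM) and Twist1 (57.4 ± 6.995 and 42.3 ± 8.19 FPKM), a pair of transcription factors that hold back the preadipocyte, were lower with overlap, and so was Dlk1, the preadipocyte surface protein Pref-1 (1157 ± 114 and 1012 ± 58.8 FPKM). Gata2 differed by -0.62, or -0.28 on its highest transcript alone.

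Fat cell products varied widely between cultures. Of 14 tested adipocyte markers 12 lay above 0 (median 0.35, 0.32 without QpE replicates 1 and 5), but none had groups apart. The median rested on control replicate 4, without which it was 0.07, and it was 0.16 on named transcripts alone. Retn, the adipokine resistin, had the smallest p of the list and stood at 2.43, 3.85, 2.14, 0.468 and 1.87 FPKM in controls and 7.297, 7.98, 12.3, 7.75 and 2.81 FPKM with QpE. QpE replicate 5 alone lay inside the control range, and the difference was 1.45 ± 0.36 (interval 0.64 to 2.25, limma adjusted p = 0.368). Adipoq, adiponectin, stood at 63.7, 77.15, 34.4, 13.4 and 101 FPKM in controls and 56.1, 68.8, 39.4, 23.7 and 50.7 FPKM with QpE, with replicate 4 the lowest in both groups. The interval of its difference was -1.18 to 1.03, wide on both sides of 0. Cfd, the adipokine adipsin (13.6 ± 8.46 and 19.2 ± 8.79 FPKM), and Cd36, a fatty acid transporter (37.6 ± 21.7 and 31.99 ± 11.7 FPKM), spread as widely, and each was lowest in replicate 4 of both groups. Fabp4, the fatty acid carrier, shares its locus with 3 other genes here (128 ± 51.9 and 151 ± 13.8 FPKM). Leaving out control replicate 4 took the difference of Cfd from 0.67 to 0.14 and that of Fabp4 from 0.35 to 0.06.

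In the lipid droplet and lipolysis list 11 of 16 members lay above 0 (median 0.13), Abhd5 being the 1 with groups apart, against 0.858% of all genes. The median was 0.05 without control replicate 4, 0.05 on the highest transcript of each gene and 0.20 without QpE replicate 4. Pnpla2, the lipase ATGL that Abhd5 activates, stood at 23.9, 26.97, 14.3, 10.7 and 28.8 FPKM in controls and 36.15, 39.1, 39.4, 24.55 and 38.4 FPKM with QpE, and only QpE replicate 4 lay inside the control range. The difference was 0.80 ± 0.26 (interval 0.23 to 1.38, limma adjusted p = 0.456), or 0.49 on named transcripts alone. The droplet coat genes Plin2 (48.7 ± 8.64 and 65.7 ± 7.63 FPKM) and Plin4 (11.9 ± 1.801 and 17.01 ± 2.81 FPKM) and the droplet budding gene Fitm2 (17.8 ± 3.37 and 26.3 ± 3.497 FPKM) were each higher in 4 of 5 QpE cultures than in any control. On the highest transcript alone Plin2 differed by 0.18 in place of 0.43 and Plin4 by 0.19 in place of 0.48. In triglyceride assembly 13 of 15 lay above 0 (median 0.08, 0.13 without QpE replicate 5). Lpin1, a phosphatidate phosphatase, stood at 6.69 ± 1.12 FPKM in controls and 9.47 ± 1.185 FPKM with QpE without overlap. The other members named are Dgat1 at 29.65 ± 7.902 and 39.3 ± 5.02 FPKM and Dgat2 at 33.03 ± 17.05 and 53.9 ± 17.7 FPKM, the last 2 being the acyltransferases of the final step. Without control replicate 4 Dgat1 differed by 0.27 in place of 0.43 and Dgat2 by 0.49 in place of 0.80.

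Fatty acid synthesis, the pathway of the herbicide's plant target, lay near the median of all genes, with 8 of 17 members above 0 (median -0.01). Acaca, the cytosolic acetyl-CoA carboxylase, stood at 17.1, 16.6, 16.5, 22.05 and 14.9 FPKM in controls and 17.65, 10.4, 17.2, 15.35 and 13.2 FPKM with QpE. The groups overlapped, with QpE replicate 2 the lowest library, and the difference was -0.24 ± 0.14 (interval -0.56 to 0.08). It was -1.052 on named transcripts alone and -0.13 without QpE replicate 2. Acacb, the mitochondrial form, differed by 0.11 ± 0.16 (-0.18 on its highest transcript alone), Fasn, fatty acid synthase, by 0.06 ± 0.07 (interval -0.09 to 0.20) and Scd1, the delta-9 desaturase, by 0.02 ± 0.12.

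Nuclear genes for mitochondria lay above 0 as lists, by small amounts. This held for 35 of 37 complex I subunits (median 0.14), 38 of 39 subunits of complexes II to V (0.15), 30 of 32 import and chaperone genes (0.17), 24 of 27 genes of pyruvate entry and the TCA cycle (0.13) and 57 of 72 mitochondrial ribosomal proteins (0.10). Without QpE replicates 1 and 5 these medians were 0.22, 0.23, 0.19, 0.17 and 0.16. With each library rescaled to 1 common total they were 0.09, 0.10, 0.12, 0.08 and 0.06. QpE replicate 5 did not share the direction for the respiratory subunits. Its list mean on the log2 scale lay below every control for complex I (6.012 against 6.052 to 6.183). The same held for complexes II to V (6.807 against 6.816 to 6.985). Few members had groups apart: Pdha1, a subunit of pyruvate dehydrogenase, at 116, 114, 119.9, 117 and 116 FPKM in controls and 128, 129.8, 139, 158 and 124 FPKM with QpE, Tomm5 of the outer membrane pore at 53.4 ± 2.16 and 59.9 ± 3.71 FPKM, and the ribosomal genes Mrps30 and Mrpl41. On the highest transcript alone Tomm5 differed by 0.02 in place of 0.16 and Mrps30 by 0.16 in place of 0.31 (0.19 without QpE replicate 4). Hspd1, the chaperonin HSP60, stood at 307, 322, 285, 269 and 304 FPKM in controls and 349, 355, 377, 403 and 300.4 FPKM with QpE, and QpE replicate 5 alone lay among the controls.

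In fatty acid oxidation 19 of 22 lay above 0 (median 0.14), with Cpt2, the inner membrane carnitine acyltransferase, apart at 18.2 ± 1.61 FPKM in controls and 22.4 ± 2.21 FPKM with QpE, while Cpt1a, its outer membrane partner, overlapped at 32.1 ± 3.33 and 35.7 ± 5.35 FPKM. Branched-chain amino acid breakdown had 19 of 21 above 0 (median 0.09, 0.05 without QpE replicate 3, 0.14 without QpE replicates 1 and 5). With each library rescaled to 1 common total, 13 of 21 lay above 0 and the median was 0.035. In this list the aminotransferase Bcat2 (17.1 ± 1.17 and 20.8 ± 1.24 FPKM) and the dehydrogenase subunit Bckdhb (22.2 ± 1.87 and 27.4 ± 2.32 FPKM) were apart. The mitochondrially encoded genes were erratic: mt-Co1, for example, was listed at 0 in 3 controls and 1 QpE library and stood at up to 1305 FPKM in the others, so no difference is read from them.

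Mitosis genes lay on 1 side. All 51 tested members were above 0, at 0.06 to 0.57, with a median of 0.23 (0.36 without QpE replicates 1 and 5, 0.14 without QpE replicate 4), but none had groups apart. Cdk1, the kinase that starts mitosis, stood at 37.2, 34.4, 27.2, 30.1 and 44.98 FPKM in controls and 41.2, 49.5, 56.1, 68.5 and 45.97 FPKM with QpE, with replicates 3 and 4 the lowest controls and the highest QpE cultures. Its difference was 0.57 ± 0.16 (interval 0.22 to 0.92, limma adjusted p = 0.372). It depended on the transcripts read and was 0.10 on named transcripts alone and 1.96 on the highest transcript alone. Mki67, the proliferation marker Ki-67, stood at 20.7, 24.1, 27.9, 31.2 and 28.1 FPKM in controls and 22.6, 22.6, 37.5, 42.8 and 33.85 FPKM with QpE, the first 2 QpE cultures lying low among the controls. It differed by 0.23, or 0.12 without QpE replicate 4. The mean of the list over its members was 4.16, 4.24, 4.39, 4.60 and 4.36 on the log2 scale in controls and 4.29, 4.36, 4.83, 4.97 and 4.54 with QpE, so cultures differed within each group by more than the groups did. In DNA replication 38 of 44 lay above 0 (median 0.14, 0.08 without QpE replicate 4), with Pcna, the sliding clamp, at 83.4 ± 11.45 and 104 ± 8.33 FPKM and Mcm2 of the replicative helicase at 33.7 ± 3.31 and 32.98 ± 2.13 FPKM. G1 cyclins and CDK inhibitors lay near the median of all genes (14 of 25, median 0.04), and Ccnd1, cyclin D1, was lower at 75.9 ± 15.1 FPKM in controls and 61.6 ± 5.27 FPKM with QpE with overlap. It differed by -0.28, or -0.18 without control replicate 4.

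**Figure D4:**
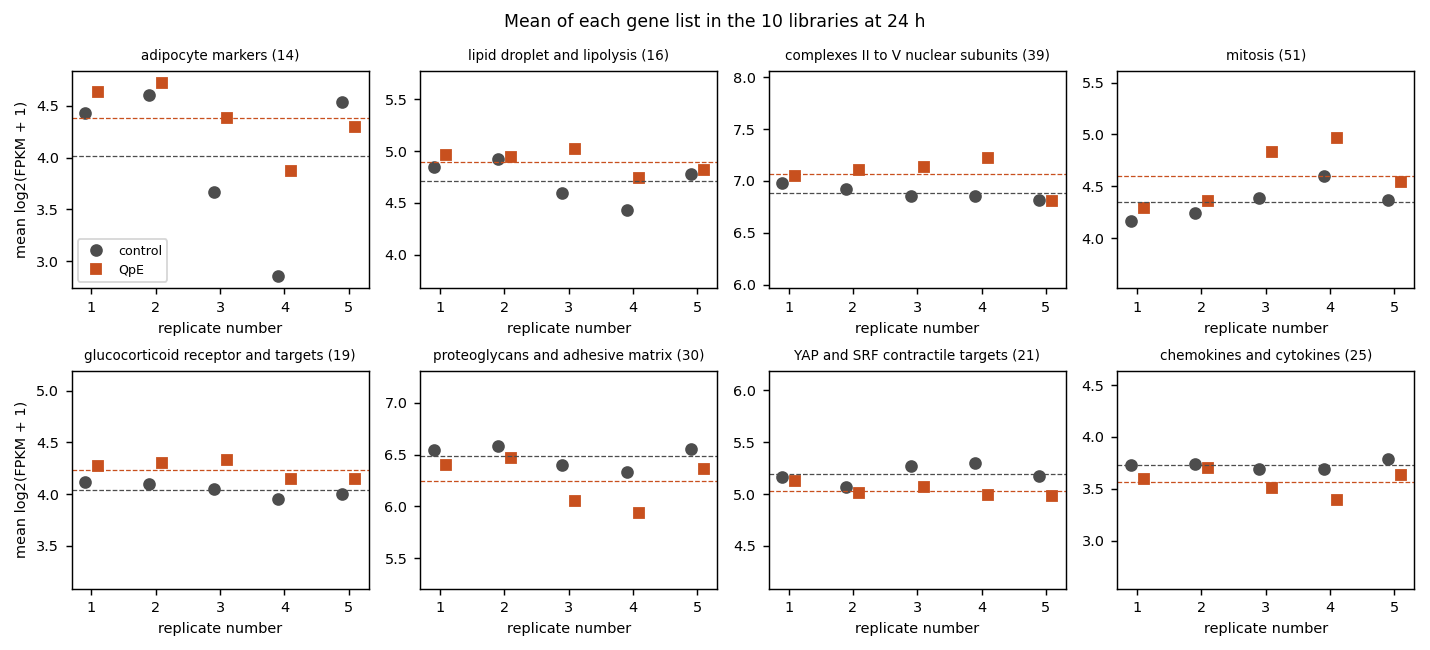
Mean log2(FPKM + 1) over the tested genes of 8 lists (y axis, same height in each panel) in control (circles) and QpE (squares) cultures by replicate number (x axis); dashed lines are group means. The glucocorticoid list narrowly does not overlap between groups (up to 4.116 in controls, from 4.142 with QpE). It includes Zbtb16, which was tested only through its QpE values. These means are not rescaled for the higher FPKM totals with QpE. The mitochondrial import list, not shown, does not overlap either (up to 5.175 and from 5.19). Mitosis runs from 4.16 to 4.60 in controls and from 4.29 to 4.97 with QpE.

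Of 19 tested genes of the glucocorticoid receptor and its targets, 4 had groups apart, all with QpE higher, beside 0.858% of all genes. Zbtb16, 1 of the 4, was tested only through its QpE values. This list was drawn up with earlier results known. With 15 of 19 above 0, the list median was 0.16 (0.23 without QpE replicates 1 and 5), and its mean was 3.95 to 4.12 in controls and 4.14 to 4.33 with QpE. Besides Fkbp5, Zbtb16, a transcriptional repressor induced by glucocorticoids, stood at 0.656, 0.666, 0.539, 0.3396 and 0.329 FPKM in controls and 1.56, 1.52, 2.89, 1.596 and 1.21 FPKM with QpE. Its level was low in all libraries, the lowest QpE culture lay well above the highest control, and the difference was 0.85 ± 0.16 (limma adjusted p = 0.188), or 1.599 with a smaller pseudocount. Zbtb16 reached 1 FPKM in the QpE cultures only, so passing the filter already set its lack of overlap. It also enters the list median and mean. Per1, a clock gene, stood at 5.405, 5.71, 5.51, 5.297 and 4.397 FPKM in controls and 7.28, 9.63, 7.31, 6.17 and 7.42 FPKM with QpE, and its highest transcript alone lay below 0 (-0.27). Glul, glutamine synthetase, stood at 35.5 ± 8.46 FPKM in controls and 53.1 ± 6.66 FPKM with QpE and shares its locus with another gene. Other targets did not separate: Tsc22d3, the mediator GILZ, stood at 21.3 ± 2.59 FPKM in controls and 24.9 ± 2.08 FPKM with QpE, Klf9 at 26.7 ± 3.09 and 27.2 ± 3.38 FPKM, and the receptor gene itself, Nr3c1, at 39.8 ± 3.46 and 38.6 ± 2.87 FPKM. Tsc22d3 differed by 0.22, which ran from 0.11 on named transcripts to 0.50 on the highest transcript. At 6 h, in other libraries, the same list had 15 of 19 above 0 and a median of 0.13. At 12 days 5 of 19 members rose and 1 fell, against 5.93% and 7.79% of all genes, and the median was 0.40.

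Of stress lists, the ATF4 integrated stress response had 28 of 32 above 0 (median 0.15). Slc7a5, a large neutral amino acid transporter, stood at 17.3, 15.1, 10.8, 11.3 and 12.1 FPKM in controls and 23.6, 19.99, 19.6, 15.4 and 16.6 FPKM with QpE, and control replicate 1 alone reached the QpE range. Cars, a cysteinyl-tRNA synthetase, was apart at 16.3 ± 0.85 FPKM in controls and 19.5 ± 2.15 FPKM with QpE (a difference of 0.24, or 0.78 on its highest transcript alone), and Atf4 itself stood at 129 ± 8.93 and 142 ± 8.14 FPKM. ER folding genes lay near 0 (median 0.01). In the NRF2 list 20 of 26 lay above 0 (median 0.10, 0.19 without QpE replicates 1 and 5). Nqo1, a quinone reductase, stood at 28.9, 33.6, 47.3, 65.7 and 30.9 FPKM in controls and 35.55, 39.9, 83.9, 94.2 and 55.5 FPKM with QpE, with replicates 3 and 4 the highest in both groups. The proteasome had 36 of 37 above 0 (median 0.09, 0.14 without QpE replicates 1 and 5). With each library rescaled to 1 common total the proteasome median was 0.03.

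Sensors of foreign compounds gave a mixed picture. Ahr, the aryl hydrocarbon receptor, stood at 3.61, 3.53, 5.99, 6.11 and 6.65 FPKM in controls and 3.26, 2.52, 3.001, 3.34 and 3.95 FPKM with QpE, overlapping only through control replicates 1 and 2. Arnt, its partner, was apart and lower at 32.8 ± 1.04 FPKM in controls and 28.5 ± 0.839 FPKM with QpE (above 0, at 0.10, on its highest transcript alone), while Cyp1b1, a cytochrome P450 that the receptor induces, was higher with overlap at 142 ± 19.8 FPKM in controls and 183 ± 33.1 FPKM with QpE. Enzymes of ester and xenobiotic metabolism had 9 of 25 above 0 (median -0.05), with Ces1d and Ces1f, 2 carboxylesterases of a family of close copies whose reads may be split between members, at 2.435 ± 0.305 and 2.01 ± 0.573 FPKM and at 16.8 ± 5.01 and 24.4 ± 12.6 FPKM. Ces1d differed by -0.21, or -0.14 without QpE replicate 5. Ces1f differed by 0.42, which ran from 0.21 without control replicate 5 to 0.86 without QpE replicates 1 and 5.

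Matrix genes lay lower as lists by their medians, but not in every culture. The proteoglycan list mean, on the log2 scale, lay below every control only in QpE replicates 3 and 4 (6.056 and 5.933 against 6.335 to 6.582). Among proteoglycans and adhesive proteins 7 of 30 lay above 0 (median -0.19), and 5 of 30 were apart, all lower, against 1.16% of all genes: Ogn, Thbs1, Thbs2, Lum and Fbn1. Ogn, osteoglycin, stood at 29.75, 30.96, 19.3, 23.25 and 32.9 FPKM in controls and 14.98, 18.98, 5.81, 7.64 and 16.03 FPKM with QpE, with replicates 3 and 4 the lowest in each group. The lowest control and the highest QpE culture nearly touched, and the difference was -1.14 ± 0.30 (interval -1.79 to -0.48, limma adjusted p = 0.371). Thbs1, thrombospondin 1, an activator of latent TGF-beta, stood at 31.5, 31.5, 38.5, 36.4 and 34.3 FPKM in controls and 25.9, 26.3, 18.4, 19.6 and 24.6 FPKM with QpE, a difference of -0.57 ± 0.11. Fbn1, the microfibril protein fibrillin 1, stood at 82.3 ± 3.41 and 72.7 ± 3.545 FPKM (a difference of -0.18, or -0.34 on its highest transcript alone), and Dcn, decorin, at 1404 ± 109.6 and 1038 ± 140.5 FPKM with overlap.

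Collagens and their processing enzymes had 9 of 29 above 0 (median -0.13, 0.004 on the highest transcript of each gene alone, -0.24 without QpE replicates 1 and 5). The list mean of QpE replicate 1 (7.023) lay above every control (6.788 to 7.008), and replicates 3 and 4 were the lowest (6.618 and 6.521). Lox, lysyl oxidase, which cross-links collagen and elastin, stood at 361, 366, 366, 366 and 335 FPKM in controls and 329, 299.5, 270.3, 247 and 309.6 FPKM with QpE, without overlap. Its relative Loxl3 stood at 38.3 ± 4.602 and 31.4 ± 1.396 FPKM (above 0, at 0.25, on its highest transcript alone). Col1a1, the main fibrillar collagen, overlapped at 1031 ± 161 FPKM in controls and 918 ± 193 FPKM with QpE. Its difference of -0.18 ran from -0.37 without QpE replicates 1 and 5 to -0.09 without QpE replicate 3. Of matrix proteases and inhibitors 4 of 20 lay above 0 (median -0.17, -0.10 without QpE replicate 4). Timp3 was apart at 17.2 ± 3.58 FPKM in controls and 11.3 ± 1.26 FPKM with QpE and shares its locus with another gene.

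In the TGF-beta and BMP pathway 10 of 30 lay above 0 (median -0.05) and 4 of 30 were apart, all lower, against 1.16% of all genes. Beside the ligand Tgfb3 these were the type I receptor Acvr1 (30.1 ± 0.594 and 26.2 ± 1.899 FPKM), the activin antagonist Fst (30.4 ± 2.48 and 25.6 ± 0.827 FPKM) and the induced matrix gene Tgfbi, which stood at 25.2, 25.9, 25.9, 28.5 and 32.5 FPKM in controls and 21.4, 20.6, 19.96, 19.9 and 23.7 FPKM with QpE. The other ligands overlapped, Tgfb1 at 18.3 ± 2.08 and 18.5 ± 3.06 FPKM and Tgfb2 at 15.7 ± 3.15 and 14.5 ± 2.29 FPKM. Of YAP and SRF contractile targets 2 of 21 lay above 0 (median -0.13), with the myosin light chain Myl9 (7.16 ± 0.817 and 5.25 ± 0.873 FPKM, differing by -0.39, or -0.19 on named transcripts alone) and the actin-binding Cald1 (302 ± 7.63 and 273 ± 14.9 FPKM) apart, the latter at 0.02 on named transcripts alone. The Wnt list had 5 of 21 above 0 (median -0.08, -0.04 without QpE replicate 4, -0.15 without QpE replicates 1 and 5). In it the secreted inhibitor Sfrp2 was lower (69.5 ± 3.445 and 54.97 ± 5.86 FPKM) and the R-spondin receptor Lgr4 higher (36.4 ± 2.03 and 44.9 ± 5.02 FPKM), both apart.

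Chemokines and cytokines had 7 of 25 above 0 (median -0.18, -0.26 without QpE replicates 1 and 5), and 3 of 25 were apart, all lower, against 1.16% of all genes. Cxcl5, a neutrophil attractant, stood at 56.3, 60.95, 64.4, 65.02 and 73.01 FPKM in controls and 38.3, 46.1, 34.4, 49.3 and 48.5 FPKM with QpE. Every QpE culture lay below every control, and the difference was -0.56 ± 0.11 (interval -0.80 to -0.32, limma adjusted p = 0.201). Ccl2, the monocyte attractant MCP-1, stood at 34.9, 32.5, 41.5, 43.01 and 38.85 FPKM in controls and 26.6, 32.3, 26.3, 32.3 and 27.8 FPKM with QpE, where control replicate 2 and QpE replicates 2 and 4 almost met. Ccl9 stood at 5.46 ± 0.745 FPKM in controls and 3.54 ± 0.413 FPKM with QpE.

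Insulin signalling had 14 of 23 above 0, with the adaptor Irs1 (15.3 ± 0.405 and 13.2 ± 0.967 FPKM) and the receptor-binding inhibitor Grb14 (11.3 ± 1.86 and 8.03 ± 1.275 FPKM) apart and lower. In the insulin-like growth factor (IGF) system 3 of 13 lay above 0 (median -0.10, -0.17 without QpE replicates 1 and 5), Stc1 being the 1 apart. Igf1 stood at 136 ± 27.9 FPKM in controls and 102 ± 35.9 FPKM with QpE, a difference of -0.47. That was -0.29 without QpE replicate 4 and -0.74 without QpE replicates 1 and 5. Of the preadipocyte markers 1 of 11 lay above 0 (median -0.19). Their mean on the log2 scale was above every control in QpE replicates 1 and 2 (9.014 and 9.031 against 8.834 to 8.984). Thy1, a fibroblast surface protein, stood at 239.8, 232, 237, 242 and 270.5 FPKM in controls and 211, 223, 196, 191 and 210.3 FPKM with QpE, and Pdgfra, a progenitor receptor whose locus holds another gene, at 142 ± 18.1 and 102 ± 16.6 FPKM, both apart. Lists whose median lay within 0.05 of 0 in the main fit included cholesterol synthesis (-0.005), interferon response (0.00), cAMP response (0.01), immediate early genes (0.02), HIF targets (-0.01) and metallothioneins with zinc transporters (0.04). Of these, only cAMP response stayed in that band over all settings (-0.048 to 0.030), while cholesterol synthesis ran from -0.070 to 0.076.

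The 6 h and 12 day libraries, none of which is among those at 24 h, were read for the genes that separated the groups at 24 h. The labels do not say whether cultures of different times were set up together, so the times are not known to be independent. Of the 151 genes with QpE lower at 24 h, 141 were tested at 12 days, where 134 lay below 0 (95.04%, against 47.7% of all genes there), 73 fell and none rose (51.8%, against 7.79% of all genes falling). Of the 112 with QpE higher, 111 were tested at 12 days, where 89 lay above 0 (80.2%, against 52.3%), 22 rose and none fell (19.8%, against 5.93% of all genes rising). At 6 h, where limma called 1 of 12994 genes (0.0077%), 101 of 145 genes of the lower set lay below 0 (69.7%, against 55.6%) and 68 of 109 of the higher set above 0 (62.4%, against 44.4%), with medians of -0.03 and 0.02. At 6 h none of either set was called.

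Pcdh18 fell at 12 days, with a log2 difference of -1.74 ± 0.34 (limma adjusted p = 0.014), and stood at -0.08 ± 0.22 at 6 h. Stc1 fell likewise, with a difference of -1.67 ± 0.22 (limma adjusted p = 0.00642), and so did Lum (-2.55 ± 0.60, 0.0225) and Tgfb3 (-1.56 ± 0.28, 0.0119). Of the 12 leading genes with QpE lower, all but Sdc2 fell at 12 days. Of the 12 with QpE higher, Abhd5 alone rose there (0.55 ± 0.08, limma adjusted p = 0.00859), nearly the size it had at 24 h. Fkbp5 stood at a difference of 1.52 ± 0.59 with a wide error (0.117), and Dpep1, Bcl9l and Cdk5rap2 lay below 0.

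**Figure D5:**
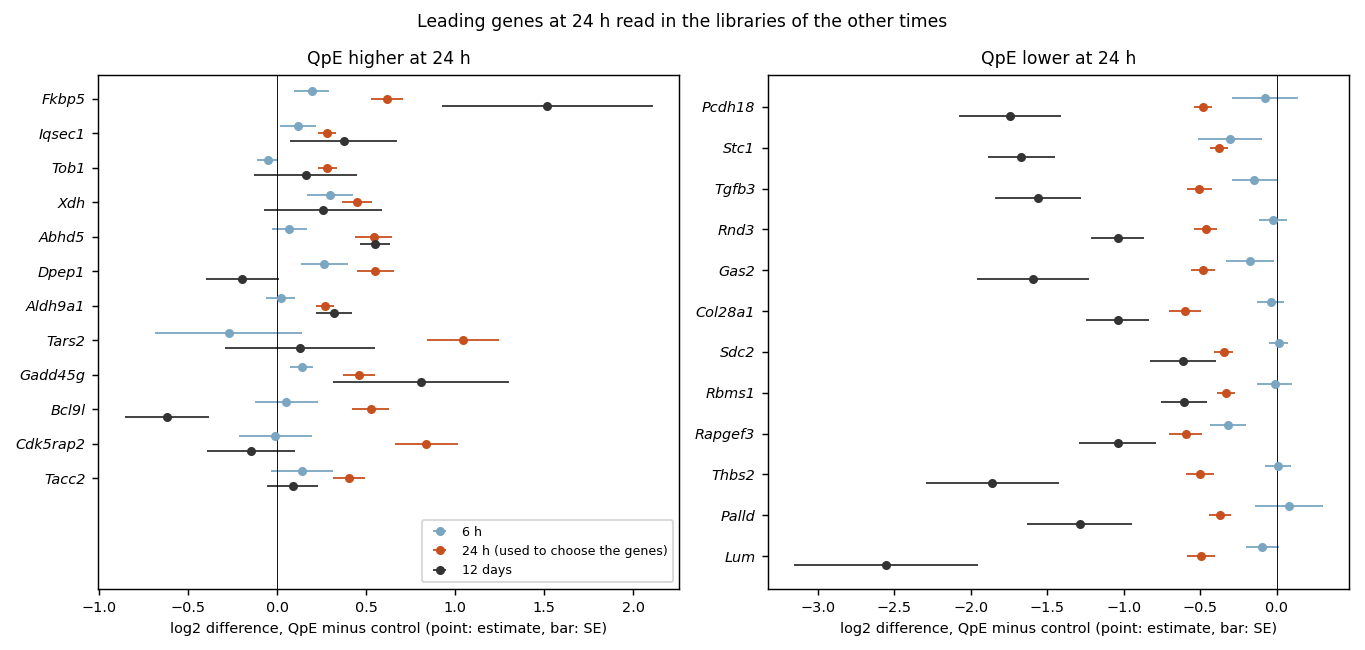
Log2 difference, QpE minus control (x axis), of the 12 leading genes in each direction at 6 h, 24 h and 12 days; points are limma estimates and bars SE, each time fitted on its own 10 libraries. The genes were chosen at 24 h; all 12 genes with QpE lower are further from 0 at 12 days than at 24 h, and 6 of the 12 with QpE higher are.

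The difference in QpE effect between times was tested as an interaction over 20 libraries. Between 24 h and 6 h limma called 0 of 13964 genes (0.0%; 651, or 4.66%, at an unadjusted p of 0.05), so no gene was shown to respond differently at 24 h than at 6 h. Between 12 days and 24 h it called 49 genes with the effect at 12 days above that at 24 h (0.349%) and 110 with it below (0.784%). These counts depended on the fit and on single libraries: leaving out 1 library at 24 h gave 1 to 16 and 2 to 23 genes for every library but QpE replicate 4 (58 and 131), weights for the unequal spread of the groups gave 139 and 345, and reading 1 top transcript per gene gave 1 and 4. Stc1 was among them (-1.29 ± 0.23, limma adjusted p = 0.0268), and so were Sfrp2 (-1.83 ± 0.43, 0.0486), Lox (-1.41 ± 0.32, 0.0405), Zfp521 (-1.11 ± 0.22, 0.0344), Twist1 (-0.99 ± 0.22, 0.0396) and Dlk1 (-1.35 ± 0.30, 0.0407), all further below 0 at 12 days. Kera, keratocan, a small proteoglycan, stood at 25.9 ± 3.38 and 17.7 ± 4.38 FPKM at 24 h and its effect at 12 days minus that at 24 h was -2.06 ± 0.49 (limma adjusted p = 0.0493). Cpt1a, which at 24 h differed by 0.14 ± 0.11, fell at 12 days (-1.12 ± 0.23), an interaction of -1.27 ± 0.27 (limma adjusted p = 0.0364). Bcl9l crossed 0, from 0.53 ± 0.10 at 24 h to -0.62 ± 0.24 at 12 days (interaction -1.14 ± 0.27, limma adjusted p = 0.048). In the other direction Anxa8, an annexin, stood at 13, 16.3, 14.45, 9.93 and 10.1 FPKM in controls and 18.5, 20.5, 37.25, 23.3 and 14.3 FPKM with QpE at 24 h, a difference of 0.74 ± 0.23, and its effect at 12 days was higher by 2.17 ± 0.42 (limma adjusted p = 0.0316). Ero1l, an ER oxidase, had an interaction of 1.58 ± 0.34 (0.0366) and Dhrs3, a retinal reductase, of 1.58 ± 0.27 (0.0268).

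The mitosis list did not carry over in this way. Its median of 0.23 at 24 h (0.14 without QpE replicate 4) stood beside -0.03 at 6 h, with 15 of 51 above 0, and -0.08 at 12 days, where none rose and 1 fell. Counts at 12 days are to be read against 7.79% of all genes falling there and 5.93% rising. For matrix the medians at 6 h, 24 h and 12 days were 0.01, -0.19 and -1.11 for proteoglycans and adhesive proteins, of which 16 of 29 fell at 12 days, and 0.03, -0.13 and -0.94 for collagens, of which 15 of 30 fell and 1 rose. Subunits of complexes II to V had medians of -0.04, 0.15 and 0.46, with 23 of 41 rising at 12 days, and chemokines -0.06, -0.18 and -1.03, with 8 of 24 falling.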

How the data were processed

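RNA-seq libraries of 3T3-L1 cells were made from mRNA with a directional kit and read as pairs, per the labels' protocols. The authors deposited 1 table of FPKM values per transcript for 30 libraries; HISAT, HISAT2, StringTie and the build GRCm38 are named in the submitters' processing notes, with no versions, and the table has Ensembl and assembled (MSTRG) transcripts. Transcript FPKM were summed per gene, 10567 of 16259 unnamed transcripts being joined to a gene by their locus, and the 11 values below 0 (lowest -7e-05) were set to 0. Genes with at least 1 FPKM in at least 5 libraries were tested on log2(FPKM + 1), pseudocount 1, with limma 3.58.1 (R 4.3.3, mean-variance trend, Benjamini-Hochberg adjustment, threshold 0.05, two-sided), on the 10 libraries at 24 h. Interactions used the 20 libraries of the 2 times. The script was tested on simulated data. Leading genes were the 12 with the smallest p in each direction among named genes with no overlap between groups and a mean of 5 FPKM or more in 1 of them; anchor genes of each list, the smallest p per list and direction, the 4 largest interactions in each direction by the same 5 FPKM rule, and cell type markers were also named. The comparison and the lists were chosen with earlier results of these data known. Alternatives changed the libraries, replicate block, pseudocount, filter, scaling, gene value and variance model.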

Additional observations from a re-analysis of the deposited data

Results flagged for a closer look

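Among 228 groups of 5 values looked at (each named gene and library measure, per group at 24 h), 16 had 1 culture far from the other 4; chance flags about 1 group in 20. In QpE replicate 4, Tgfb3 was low at 13.3 FPKM (others 16.6 to 17.9) and Pnpla2 at 24.5 (36.1 to 39.4), Mrps30 was high at 15.8 (9.44 to 10.4), and the leukocyte genes Ptprc and Adgre1 were listed at 0.031 and 0.0242, the others being at 0. QpE replicate 5 had the lowest FPKM total of its group, 440837 (456724 to 463043), the highest Ccnd1, 70.8 (57.8 to 60.5), and mt-Co1 listed at 0 (1113 to 1305). Zbtb16 was highest in QpE replicate 3, at 2.89 FPKM (1.21 to 1.6), and Tomm5 in QpE replicate 2, at 66.4 (57.7 to 59.8).

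In control replicate 5, Lox was low at 335 FPKM (361 to 366), Rxra low at 47.2 (56.9 to 60.03) and Thy1 high at 271 (232 to 242). In control replicate 4, Kera was low at 20.2 (26 to 28.3), Scd1 high at 72.9 (58.1 to 61.1) and Tsc22d3 high at 25.8 (19.3 to 21.2). Without such a culture, no named gene passed the threshold.

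The QpE effect differed between 12 days and 24 h by the interaction test (limma adjusted p under 0.05 over 20 libraries) for 12 of the 109 genes named. Over all genes the test called 159 of 14036 (1.13%). The largest called interactions were named by rule, so the count of 12 is partly set by that choice. The effect lay higher at 12 days for Anxa8 (2.17), Dhrs3 (1.58) and Ero1l (1.58). It lay lower for Kera (-2.06), Sfrp2 (-1.83), Lox (-1.41), Dlk1 (-1.35), Stc1 (-1.29), Cpt1a (-1.27), Bcl9l (-1.14), Zfp521 (-1.11) and Twist1 (-0.99). Leaving out any library at 24 h other than QpE replicate 4 left 1 to 16 genes called above and 2 to 23 below over all genes.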

How the results depend on the processing

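At 24 h the 0 called genes became 2 higher and 1 lower with the 20 libraries at 6 h and 24 h or on named transcripts only, 1 and 2 on the most abundant transcript, and 0 and 1 without QpE replicates 1 and 5; leaving out 1 library gave 0 to 1 in each direction (1 higher without control replicate 1 or QpE replicate 3, 1 lower without QpE replicate 1), and the other settings gave 0. Genes at an unadjusted p of 0.05 numbered 703 with all 30 libraries and 1542 without QpE replicate 5. The labels do not say whether a replicate number marks a shared day or batch. The deviations of cultures with 1 number correlated at 0.016 to 0.113, and 3 of 5 controls correlated best with their own number. These values do not settle whether the cultures were paired, and the main fit treated them as unpaired. The replicate block gave 0 calls at 24 h and, between 12 days and 24 h, 296 above and 523 below.

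The interaction between 12 days and 24 h called 282 above and 491 below with all 30 libraries, 3 and 4 with no filter, 29 above with TPM scaling, 1 and 4 on the most abundant transcript, and 139 and 345 with weights per group; leaving out 1 library at 24 h gave 1 to 58 above and 2 to 131 below, and the cause was not tested. That between 24 h and 6 h called 0 in every setting run. The group difference in genes at 1 FPKM (6.4) ranged from -31.15 to 46.55 and that in mitochondrial mRNA (-0.095 percent) from -0.326 to 0.137 without 1 library, both changing sign, with no test passed.

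Of 49 lists, 33 kept the sign of their median in all 27 settings and 16, with medians of -0.13 to 0.34, did not. Medians that moved by more than the spread between libraries were the mitochondrial ribosome (0.055 with TPM scaling, 0.157 without QpE replicates 1 and 5), the lysosome (-0.088, TPM scaling), the TGF-beta and BMP pathway (-0.14, most abundant transcript) and chemokines (-0.284, named transcripts only). Of 107 tested genes named, 91 kept their sign in all settings. The files hold no counts, so low genes carry an error that could not be given.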
